A study of Prunus armeniaca and Prunus mume with 8 samples.

Results

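Fruit of Japanese apricot (Prunus mume) was compared with fruit of apricot (Prunus armeniaca) on the 8 arrays of the series, all of which entered the comparison. The 4 P. mume arrays came from the cultivars Ruantiaohongmei and Xiyeqing, and the 4 P. armeniaca arrays from the cultivars Manao and Zhenkui, with 2 arrays for each of the 4 cultivars. All arrays that the labels give to each species were used. All 8 arrays lay on 1 slide and were labelled with the dye Cy3. The labels describe fruit of mixed stages, drawn from stages 1 to 8, with full bloom 3 to 13 weeks earlier. Which stages each array holds is not stated, and neither is whether both arrays of a cultivar had their own trees. The p-values therefore cover the spread between these samples only, and that spread may be technical. A difference in stage mixture and a difference between species cannot be told apart for any gene that changes during fruit development. In whole fruit, fewer cells of a type and less RNA per cell cannot be told apart either.

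P. mume and P. armeniaca are close relatives among the stone fruits. Their fruit grows in an early phase of expansion, pauses while the stone hardens, and then swells again and ripens. During ripening, ethylene synthesis rises, cell walls are loosened by expansins, beta-galactosidases and polygalacturonases, and carotenoids and aroma compounds accumulate. Kernels and young fruit of the genus store cyanogenic glucosides, which prunasin hydrolases and mandelonitrile lyases break down with release of hydrogen cyanide.

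Levels are log2 processed signals relative to the 75th percentile of each array, so a level of 0 marks that percentile. Levels are compared between arrays for 1 probe and not between probes, apart from values set against the lowest signals of an array. Every difference is P. mume minus P. armeniaca on the log2 scale. A call is an adjusted p under 0.05 in limma, with cultivar as a random block. Testing was limited to the 9125 of 10384 probes that some cultivar showed well above background on both of its arrays. On single arrays 7806 (Ruantiaohongmei 2) to 8982 (Xiyeqing 2) probes were well above background, and 7468 probes (71.9%) were so on all 8 arrays and 823 (7.93%) on none. No spot was saturated. Probe and genome sequences were not used here.

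Of the 9125 tested probes, 3349 (36.7%) were called between the species. In P. mume 1380 (15.1%) were higher and 1969 (21.6%) lower. At least 2-fold differences accounted for 1941 of the calls (21.3%), with 894 (9.8%) higher and 1047 (11.5%) lower. The median difference over all tested probes was -0.11. Although lower calls were more numerous, the largest differences were mostly increases in P. mume. Among called probes the share that was higher in P. mume was 56.1% (325 of 579) at 4-fold or more, 68.3% (84 of 123) at 16-fold or more, 87.0% (20 of 23) at 128-fold or more and 92.3% (12 of 13) at 256-fold or more. The arrays of the 2 species did not overlap for 3645 probes (39.9%), with P. mume above for 1485 (16.3%) and below for 2160 (23.7%).

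**Figure D1:**
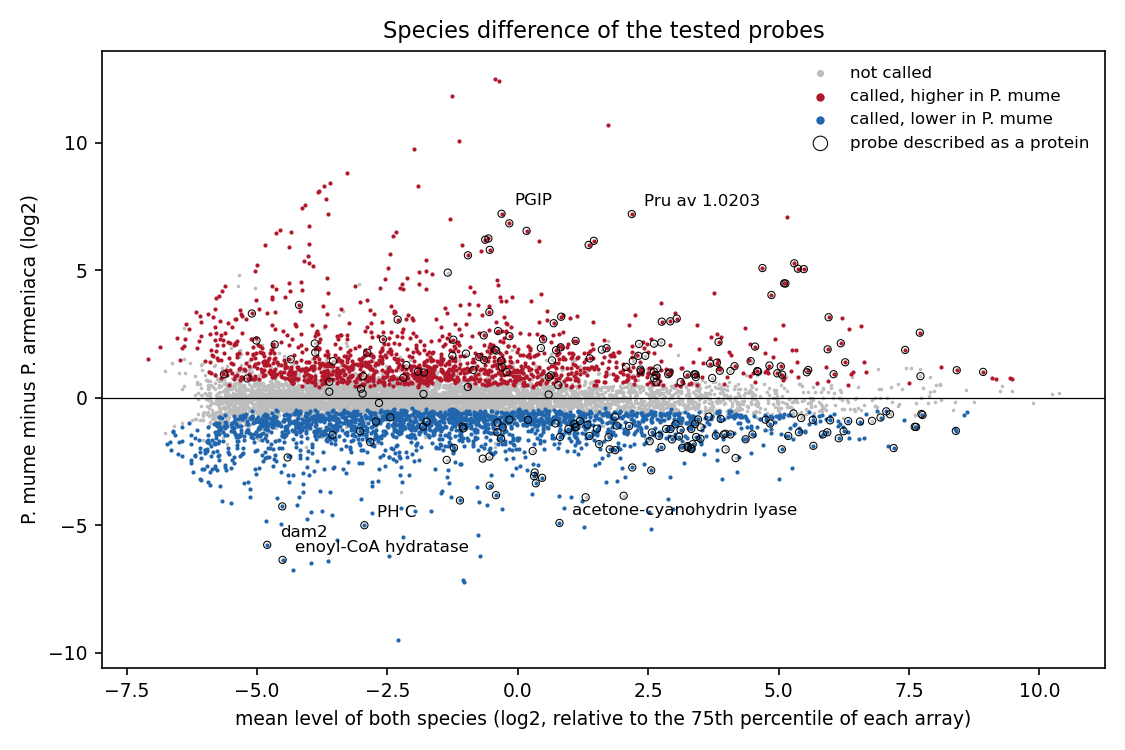
Each point is 1 of the 9125 tested probes. The x axis is the mean level of both species and the y axis the difference, P. mume minus P. armeniaca, both log2; colours mark calls and open rings the probes described as a protein. The increase at the top, 12.51, is set against P. armeniaca arrays of which 3 of 4 were not above background, and the decrease at the bottom, -9.50, against P. mume arrays of which none was.

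Over 9121 probes with a value on every array, the difference between species held a median of 46.4% of a probe's sum of squares. The median was 15.1% between cultivars of a species and 27.0% between arrays of a cultivar. These shares are not adjusted for degrees of freedom, which are most for arrays of a cultivar. They therefore do not rank cultivars against arrays. Arrays of different species correlated at r = 0.878 to 0.927 across probes, arrays of 1 cultivar at 0.969 to 0.992, and arrays of different cultivars within a species at 0.965 to 0.971 in P. mume and 0.976 to 0.987 in P. armeniaca. These values describe the arrays, since probes share arrays and are not independent replicates.

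Only 658 probes carried a description, from the authors' deposited 2-fold lists, and 244 of these named a protein, or 2.35% of all probes. These probes had been selected for differences on the same samples. Their counts are therefore no independent evidence of a direction, and they stand beside a high background: 154 of the 236 tested protein probes (65.3%) were called, 71 (30.1%) higher and 83 (35.2%) lower. Of the 8475 undescribed probes 2857 (33.7%) were called, 1201 (14.2%) higher and 1656 (19.5%) lower. The authors' deposited table for this contrast lists 1418 probes. Of these 1410 were tested here and 1282 called, all in the direction the table gives, and 1262 of them are among the 1941 calls of at least 2-fold, which is 89.0% of the authors' list and 65% of those calls.

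Sources of the probe sequences moved with the direction of the calls. Sequence tags from apricot fruit (GenBank entries starting CB or CV) gave 230 higher and 557 lower calls among 2301 tested probes, with a median difference of -0.18. Contigs, whose species the sources used here do not give, had 198 higher and 479 lower among 1954. Clusters named actca, of an origin that is not given either, gave 849 higher and 785 lower among 4249, with a median of -0.01. The actca clusters also held 99 of the increases of at least 8-fold and 16 of the decreases of that size, against 13 and 31 for the apricot tags. A probe drawn from one species can bind RNA of the other less well where the sequences differ, and the part of this in any difference was not tested.

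The arrays of a cultivar were not alike for every gene. Ruantiaohongmei 2 stood apart in genes of late ripening and of the seed. Its level was at least 8-fold above all 7 other arrays for 13 tested probes, none of them called between species, and for 18 described proteins, some of which were too dim elsewhere to be tested. These 18 were all 6 endopolygalacturonases, which cut the pectin of ripening cell walls, all 4 ACC synthases, the committed step of ethylene synthesis, 3 of 4 lipoxygenases, the 4 seed proteins and a class IV chitinase. Endopolygalacturonase DQ340810.1 showed it most plainly, at -7.71 and 5.96 in Ruantiaohongmei and -8.07 and 0.58 in Xiyeqing, against -7.94 and -6.53 in Manao and -7.98 and -5.90 in Zhenkui. The transcript was high in Ruantiaohongmei 2, intermediate in Xiyeqing 2 and near the lower end of the scale on every other array. Almond oleosin ole1 (X78118.1), an oil-body protein of seeds, stood at -4.83 and 1.91 in Ruantiaohongmei and -4.60 and -3.80 in Xiyeqing, against -5.66 and -4.30 in Manao and -4.51 and -5.36 in Zhenkui, and the seed storage protein pru1 (X78119.1) at -7.43 and 2.68 in Ruantiaohongmei and -8.07 and -4.35 in Xiyeqing, against -7.94 and -3.71 in Manao and -7.98 and -7.57 in Zhenkui. Both were high in Ruantiaohongmei 2 and low on the other 7 arrays. No seed protein and no endopolygalacturonase was called between the species.

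**Figure D2:**
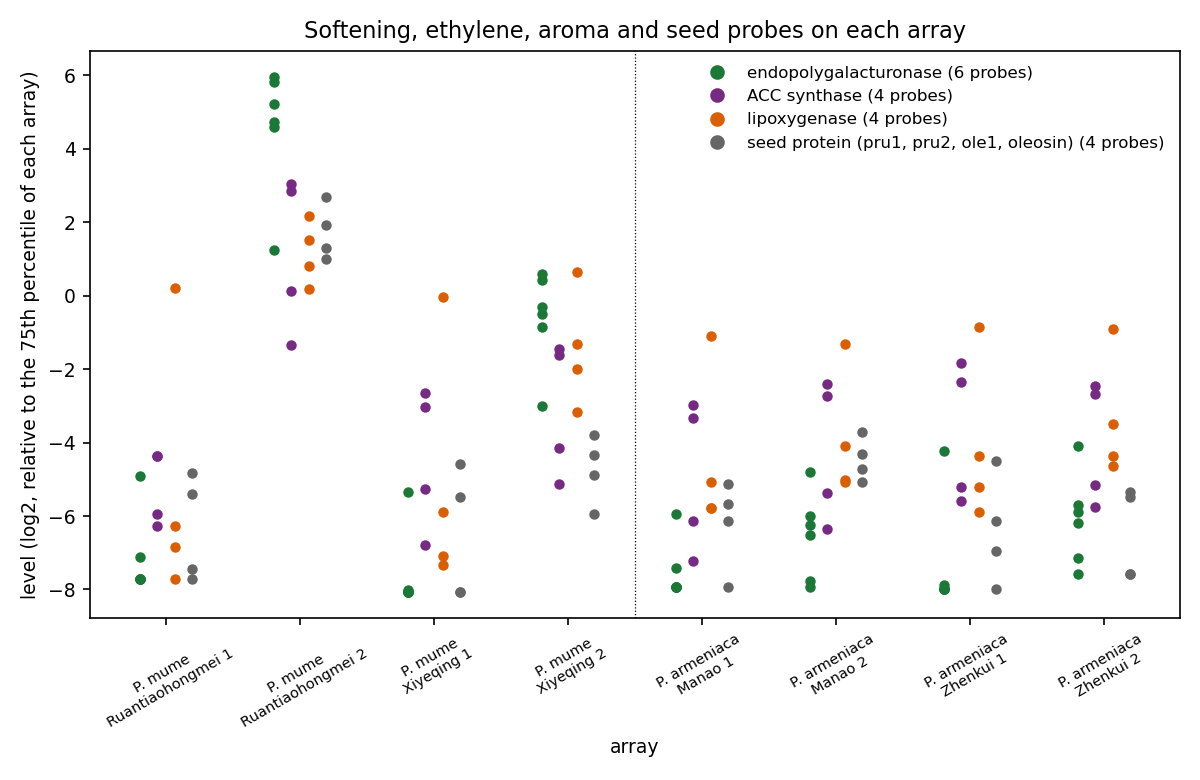
Each point is 1 probe on 1 array, grouped by product; the y axis is the level (log2, relative to the 75th percentile of each array) and the dotted line separates the P. mume arrays on the left from the P. armeniaca arrays on the right. Ruantiaohongmei 2 stands above every other array for the endopolygalacturonase, ACC synthase and seed probes, and Xiyeqing 2 lies between it and the rest for endopolygalacturonase.

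Xiyeqing 2 differed from Xiyeqing 1 by at least 8-fold for 95 probes (1.04%), 94 of them higher in Xiyeqing 2. In Ruantiaohongmei 43 probes (0.471%) differed that much between arrays, 40 of them higher in Ruantiaohongmei 2. Manao had 9 such probes (0.0987%) and Zhenkui 19 (0.208%), 18 of which were higher in Zhenkui 1. A pair of small heat shock proteins was at least 8-fold higher in Xiyeqing 2 than on all other arrays, among them AY500559.1 at -0.79 and 1.98 in Ruantiaohongmei and -0.25 and 6.31 in Xiyeqing, against -1.61 and 3.27 in Manao and -1.44 and -0.89 in Zhenkui. Without Ruantiaohongmei 2 the species comparison called 2725 probes and without Xiyeqing 2 it called 2772. Calls that were lost when 1 array was left out are named with the genes.

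The gene list with the highest median difference was that of inhibitors of pectin-cutting enzymes. Polygalacturonase-inhibiting protein (PGIP) is a cell wall protein that binds and inhibits fungal polygalacturonases. In P. mume the 9 described PGIP probes were all higher, by 5.59 to 7.22 with a median of 6.20. The probe AY883417.1 read 3.41 and 2.39 in Ruantiaohongmei and 1.23 and 3.22 in Xiyeqing, against -4.04 and -3.71 in Manao and -2.51 and -4.50 in Zhenkui. Xiyeqing 1 was the lowest P. mume array and Zhenkui 1 the highest P. armeniaca array, and the groups did not overlap. The difference was 6.25 ± 0.58 (SE; adjusted p = 8.05e-05). All 9 probes kept their call without each of the 8 arrays in turn.

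PR-10 proteins, the small Bet v 1-like proteins that include major fruit allergens, were also higher in P. mume at all 11 described probes, with a median difference of 4.49. The cherry allergen Pru av 1.0203 (AY540509.1) stood at 7.40 and 5.54 in Ruantiaohongmei and 4.82 and 5.40 in Xiyeqing, against -0.98 and -0.49 in Manao and -1.70 and -2.50 in Zhenkui. The lowest P. mume array was more than 5 log2 units above the highest P. armeniaca array, and the difference was 7.21 ± 0.60 (SE; adjusted p = 4.67e-05). PR10 (EU117120.1) read 8.15 and 8.23 in Ruantiaohongmei and 6.44 and 8.92 in Xiyeqing, against 2.38 and 3.77 in Manao and 2.81 and 1.70 in Zhenkui, a difference of 5.27. Here Xiyeqing 1 was lowest and Xiyeqing 2 highest among the P. mume arrays. Whether the probes of the PR-10 group, or those of the PGIP group, bind the same transcripts was not tested.

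The other defence proteins did not move as 1 group. Leaving the PR-10 probes out, 14 were tested, of which 2 rose, 3 fell and 9 were not called, with a median of 1.04. The rising count varied: of all 18 probes, PR-10 included, 6 rose, but 5 to 9 did with 1 array left out, and 9 did with quantile normalization, with the authors' deposited log2 values or with cultivar as a fixed effect. A thaumatin-like protein (AF362987.1), of a family with antifungal members, rose by 1.48. So did a putative TIR-NBS-LRR disease resistance protein (EF640680.1), by 1.21, though its adjusted p was 0.056 without Ruantiaohongmei 1 and 0.053 without Xiyeqing 1. Defensin DFN1 (AY078426.1), a small antimicrobial peptide, stood at 5.43 and 6.71 in Ruantiaohongmei and 6.65 and 6.08 in Xiyeqing, against 7.83 and 7.65 in Manao and 8.56 and 8.74 in Zhenkui, and was lower in P. mume at -1.98 ± 0.36 (SE; adjusted p = 0.00283). Also lower in P. mume were the lipid transfer proteins I (X96714.1), at -0.53, and LTP1 (AY093700.1), at -0.87. For X96714.1 the call did not hold without any 1 of 5 arrays, both of Ruantiaohongmei, both of Zhenkui and Xiyeqing 2, with adjusted p between 0.057 and 0.090. With arrays averaged per cultivar neither lipid transfer protein was called (adjusted p = 0.128 for X96714.1 and 0.0517 for LTP1). Beta-1,3-glucanase AJ002748.1 differed by 4.91 without a call (adjusted p = 0.0536). Xiyeqing 1 read -4.37, while the other P. mume arrays read 1.13 to 4.00.

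**Figure D3:**
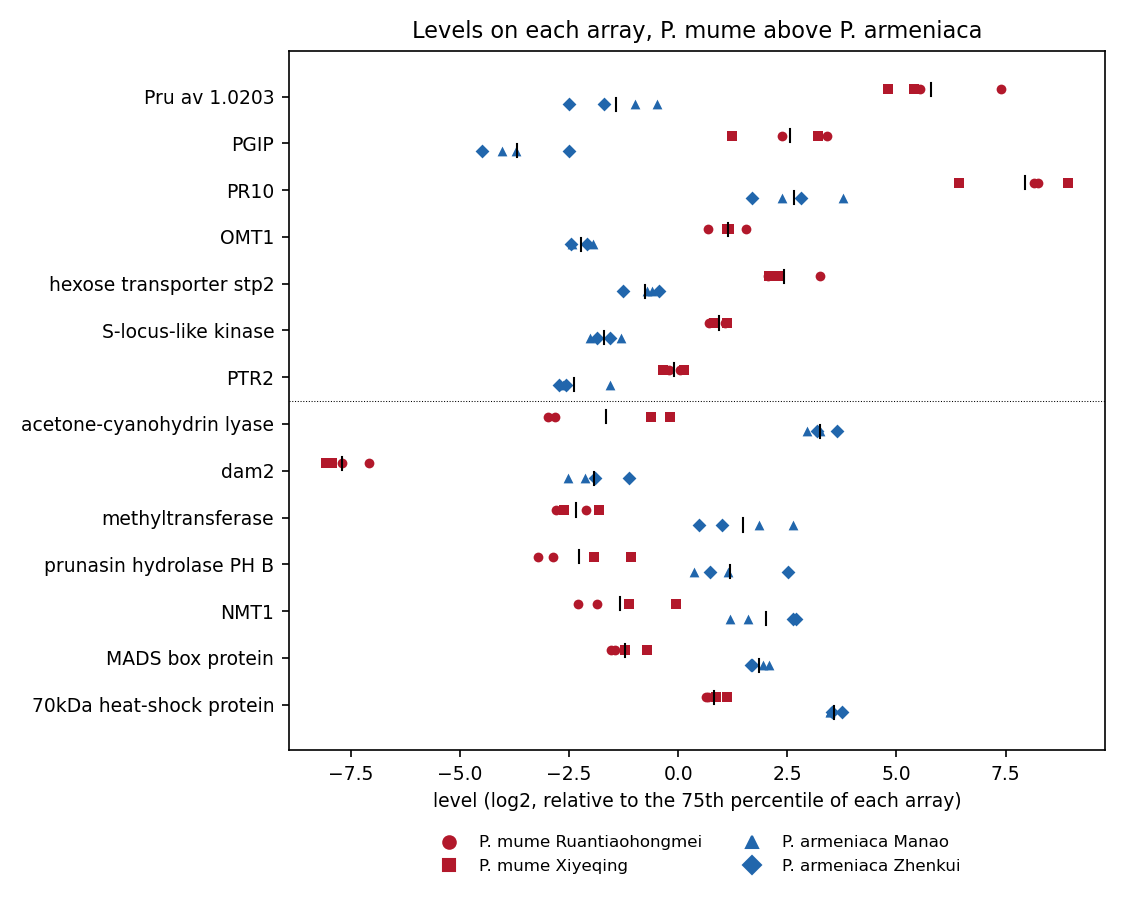
Levels (log2, relative to the 75th percentile of each array) of 7 genes higher and, below the dotted line, 7 genes lower in P. mume. For each gene the red P. mume arrays are drawn above the blue P. armeniaca arrays, marker shapes give the cultivar and black bars the mean of 4 arrays. In none of the 14 genes do the arrays of the species overlap.

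Enzymes that remodel the cell wall were called in both directions. Expansins, which loosen walls as cells grow and fruit softens, had 10 tested probes, of which 4 fell, none rose and 6 were not called, with a median of -1.43. Over all tested protein probes 35.2% were called lower, so the count of lower calls is near that background. The expansin AF367459.1 read 2.61 and 2.21 in Ruantiaohongmei and 3.23 and 2.74 in Xiyeqing, against 4.43 and 4.33 in Manao and 4.57 and 3.90 in Zhenkui. All P. mume arrays were below all P. armeniaca arrays, with a mean difference of -1.61 ± 0.25 (SE; adjusted p = 0.00131). For 9 of the 10 probes the difference was below 0, and EXP3 (AF350938.1) was the exception at 1.65, not called. Zhenkui 2 was the lowest P. armeniaca array for all 10 expansins, and 8 of the 10 were called lower without it. Without Xiyeqing 1, 1 expansin was called higher. One of the 4 calls, PA-Exp1 (U93167.1, -1.54), was lost without any 1 of 6 arrays, with an adjusted p of up to 0.12.

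Beta-galactosidases, which trim galactose from wall polysaccharides, went in both directions. Of 7 tested probes 4 rose and 3 fell. Beta-galactosidase protein 1 (EF568777.1) read 5.67 and 4.54 in Ruantiaohongmei and 2.75 and 5.44 in Xiyeqing, against 1.83 and 2.60 in Manao and 0.60 and 0.95 in Zhenkui, a difference of 3.11 ± 0.69 (SE; adjusted p = 0.00731). Xiyeqing 1 lay just above Manao 2, and the other P. mume arrays were higher. The probe AY874412.1 went the other way at 1.99 and 2.33 in Ruantiaohongmei and 2.84 and 2.14 in Xiyeqing, against 4.18 and 4.24 in Manao and 4.42 and 4.46 in Zhenkui, -2.0 ± 0.21 (SE; adjusted p = 1.77e-04), with a narrow spread in both species. The 3 alpha-L-arabinofuranosidases, which remove arabinose side chains, rose together by 0.98 to 1.04.

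Other wall enzymes were lower in P. mume where they were called. Endo-beta-1,4-glucanase eg4 (AJ890498.1) read 2.36 and 1.79 in Ruantiaohongmei and 2.80 and 2.38 in Xiyeqing, against 3.74 and 4.11 in Manao and 3.58 and 3.98 in Zhenkui, a difference of -1.52 ± 0.24 (SE; adjusted p = 0.00145). A putative pectin esterase (EF640684.1) was -0.92 and a mannan endo-1,4-beta-mannosidase (EF568778.1) -1.46. Of these calls, the pectin esterase was lost without either Ruantiaohongmei array or Xiyeqing 2 (adjusted p of 0.054 to 0.061), and the mannosidase without Xiyeqing 1 (0.051) and with normexp background correction, where its difference was -0.48. Only 6 of the 11 described pectin, xyloglucan and cellulose enzymes could be tested, since 5 endopolygalacturonases were above background on 2 P. mume arrays of different cultivars alone.

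The ethylene synthesis genes that were called were higher in P. mume, and most of the calls depended on single arrays. Of 10 tested probes 4 rose, none fell and 6 were not called, with a median of 1.62. Over all tested protein probes 30.1% were called higher. ACC oxidase 2 (AJ890087.1), the last enzyme of ethylene synthesis, read 1.98 and 2.61 in Ruantiaohongmei and 0.32 and 1.76 in Xiyeqing, against 0.01 and 0.20 in Manao and -0.75 and -0.26 in Zhenkui. Xiyeqing 1 lay just above Manao 2, and the difference was 1.87 ± 0.46 (SE; adjusted p = 0.0115). The ACC oxidase AF026793.1 differed by 1.90 and AJ890086.1 by 1.94. Both calls were lost without any 1 of the same 5 arrays, both of Ruantiaohongmei, both of Zhenkui and Xiyeqing 2, where the adjusted p was 0.057 to 0.11. The fourth call was PAO1 (X77232.1), listed with ethylene synthesis, at 1.77. Without either Ruantiaohongmei or either Zhenkui array 2 probes of the list rose, without Xiyeqing 2 only 1 did, and without Xiyeqing 1 there were 6. With cultivar as a fixed effect or slide row as the block 5 rose, and with arrays averaged per cultivar 3 did. The 4 ACC synthases differed by 0.75 to 2.24 without a call, and their levels were highest in Ruantiaohongmei 2.

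Of 7 tested probes for ethylene perception and response 1 rose, 1 fell and 5 were not called. The receptor ERS1 (AY061640.1) read 1.21 and 1.32 in Ruantiaohongmei and 1.35 and 1.52 in Xiyeqing, against 2.59 and 2.46 in Manao and 2.37 and 2.35 in Zhenkui, lower in P. mume at -1.10 ± 0.15 (SE; adjusted p = 6.78e-04) with no overlap. The 3 EIN2 probes, which report a central transducer of the signal, differed by 0.49 to 0.61 and were not called. The EIN3-like regulators EIL1 (EF031065.1, 1.11) and EIL2 (EF031066.1, 0.91), which act after EIN2, were both called higher and were chosen after their values were seen. Ethylene responsive factor 1b (FJ026008.1) rose by 2.23, a call that was lost without any 1 of 5 arrays (Ruantiaohongmei 2, Xiyeqing 1, Xiyeqing 2, Zhenkui 1 and Zhenkui 2; adjusted p of 0.065 to 0.081).

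All 7 tested probes for the breakdown of cyanogenic glucosides were called, 3 higher and 4 lower, beside 65.3% called among all tested protein probes. Prunasin hydrolases cleave the sugar from prunasin. Isoforms PH B (AF411009.1) and PH C (AF411131.1) were lower in P. mume, while PH I (U50201.2) was higher. PH B read -3.20 and -2.86 in Ruantiaohongmei and -1.08 and -1.92 in Xiyeqing, against 0.37 and 1.13 in Manao and 0.73 and 2.52 in Zhenkui, a difference of -3.45 ± 0.57 (SE; adjusted p = 0.0018). PH C exceeded background on the 4 P. armeniaca arrays but on only 1 of P. mume. It read -5.73 and -5.96 in Ruantiaohongmei and -4.40 and -5.68 in Xiyeqing, against -1.38 and -0.55 in Manao and -0.76 and 0.94 in Zhenkui, a difference of -5.00, which was -2.43 with normexp background correction. PH I read -4.91 and -5.15 in Ruantiaohongmei and -1.34 and -2.38 in Xiyeqing, against -6.93 and -5.33 in Manao and -7.98 and -6.76 in Zhenkui. The groups did not overlap, but Ruantiaohongmei 2 lay close to Manao 2, and the probe exceeded background on 3 arrays of P. mume and on 1 of P. armeniaca. Its difference of 3.31 ± 0.89 (SE; adjusted p = 0.0179) was 1.06 with normexp and 1.84 in the authors' deposited log2 values, and its call was lost without Xiyeqing 2 or Zhenkui 1 (adjusted p of 0.051 and 0.050) and with arrays averaged per cultivar (0.0676).

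The lyases were split as well. A putative acetone-cyanohydrin lyase (EF640662.1), of the group of enzymes that split cyanohydrins, read -2.99 and -2.83 in Ruantiaohongmei and -0.19 and -0.62 in Xiyeqing, against 3.24 and 2.96 in Manao and 3.63 and 3.19 in Zhenkui. It was lower in P. mume at -4.91 ± 0.61 (SE; adjusted p = 4.00e-04), and Ruantiaohongmei was below Xiyeqing. The mandelonitrile lyase MDL4 (AF053884.1) read 4.10 and 4.47 in Ruantiaohongmei and 5.13 and 4.32 in Xiyeqing, against 2.74 and 3.23 in Manao and 3.00 and 3.54 in Zhenkui and was higher in P. mume by 1.37 ± 0.27 (SE; adjusted p = 0.00421). Another probe named MDL4 (AF043186.1) was higher by 1.34, and whether both bind the same transcript was not tested. A further mandelonitrile lyase (Y08211.1) was lower at -0.86, but without either Ruantiaohongmei array, without Xiyeqing 2 or with arrays averaged per cultivar it was not called, and 3 probes of the list fell. The calls of EF640662.1 and AF053884.1 held in every setting and without each array in turn.

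MADS-box regulators were lower in P. mume where they were called. Of 8 tested probes 6 fell, none rose and 2 were not called, with a median of -2.64. Among all tested protein probes 35.2% were called lower. The dam genes are dormancy-associated MADS-box genes, known from bud dormancy in peach. The probe for dam2 (DQ863255.1) was well above background on no array of P. mume, which leaves a bound of 11.1-fold lower in P. mume. Such a bound divides the brighter species' mean by the dimmer species' mean, after each dim array is raised to its lowest signal among probes above background where it lies under it. The bound is for the processed signal only and is no firm limit. With normexp background correction dam2 differed by -1.64, which is smaller than its bound. The arrays read -7.71 and -7.08 in Ruantiaohongmei and -8.07 and -7.92 in Xiyeqing, against -2.12 and -2.53 in Manao and -1.13 and -1.89 in Zhenkui. The probe for dam5 (DQ863251.1) read -2.96 and -1.88 in Ruantiaohongmei and -5.39 and -2.27 in Xiyeqing, against 0.51 and 0.25 in Manao and 1.71 and 1.16 in Zhenkui, a difference of -4.03 ± 0.73 (SE; adjusted p = 0.00279). The difference of dam1 (DQ863253.2) was -2.93, and its call was lost without Ruantiaohongmei 1, Zhenkui 1 or Zhenkui 2 (adjusted p of 0.056 to 0.12); without Xiyeqing 1 the difference was -1.94. The probe for dam3 (DQ863256.1) differed by 1.73 and was not called. A putative MADS box protein (AM076976.1) was the most even, at -1.44 and -1.54 in Ruantiaohongmei and -1.21 and -0.71 in Xiyeqing, against 1.95 and 2.08 in Manao and 1.70 and 1.67 in Zhenkui, a difference of -3.08 ± 0.22 (SE; adjusted p = 1.85e-05).

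Carotenoid genes were lower in P. mume at 3 of 4 tested probes, beside 35.2% of all tested protein probes. Among the 3, AF071888.1 (-2.02) and AF159948.1 are both named zeaxanthin epoxidase. Whether they bind the same transcript was not tested. Zeaxanthin epoxidase (AF159948.1), which turns zeaxanthin into violaxanthin, read -0.14 and 0.99 in Ruantiaohongmei and 0.57 and 1.93 in Xiyeqing, against 3.05 and 3.06 in Manao and 2.77 and 2.70 in Zhenkui, a difference of -2.06 ± 0.40 (SE; adjusted p = 0.00374). Phytoene desaturase (AY822065.1), an early step of the pathway, was lower at -1.14 ± 0.19 (SE; adjusted p = 0.00165). Phytoene synthase 1 (AY822067.1), the entry step, read 1.04 and 3.33 in Ruantiaohongmei and 1.51 and 4.34 in Xiyeqing, against 0.62 and 0.74 in Manao and 0.61 and 0.71 in Zhenkui. Every P. mume array was above every P. armeniaca array, but the difference of 1.89 was not called (adjusted p = 0.0551). Ruantiaohongmei 2 and Xiyeqing 2 were the high arrays, and the probe was called higher when any 1 of Ruantiaohongmei 1, Xiyeqing 1, Manao 1 and Manao 2 was left out.

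Of 6 phenylpropanoid and flavonoid probes 1 rose, 2 fell and 3 were not called between the species. Phenylalanine ammonia-lyase, the entry enzyme, was lower in P. mume at both probes (EF031063.1, -1.90, and AF036948.1, -1.44). The call of AF036948.1 was lost without Ruantiaohongmei 1, Xiyeqing 1 or Xiyeqing 2, with an adjusted p of 0.055 to 0.072. Chalcone synthase (DQ856583.1), the first enzyme of flavonoid synthesis, read -4.47 and -2.92 in Ruantiaohongmei and 3.96 and 3.86 in Xiyeqing, against 3.31 and 3.82 in Manao and 4.32 and 4.36 in Zhenkui. It was low in Ruantiaohongmei alone. Its species difference of -3.85 was not called (adjusted p = 0.121).

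Whether the species difference depended on the cultivars was tested directly. Ruantiaohongmei and Manao shared slide row 1, and Xiyeqing and Zhenkui shared row 2. The row cannot be told apart from the pair of cultivars. Within a row, an effect of the row drops out of the difference, and an effect of the column does not. P. mume lay in columns 3 and 4 of row 1 and in columns 1 and 2 of row 2, and P. armeniaca in the other columns. An effect of the column would therefore fall on the difference between rows, where it cannot be told apart from the cultivars. Ruantiaohongmei differed from Manao at 1971 probes (21.6%), 794 (8.7%) higher and 1177 (12.9%) lower, and Xiyeqing from Zhenkui at 2541 (27.8%), 1149 (12.6%) higher and 1392 (15.3%) lower. All 3349 species calls had the same sign in both rows, 1440 were called in both and 750 in neither. The species difference is the mean of the row differences from the same arrays. The shared sign is therefore largely set by the call and is no separate evidence. The row 1 count was 562 without Manao 1 and 693 without Manao 2. The row 2 count was 1278 without Xiyeqing 2, 1291 without Zhenkui 1, 1414 without Zhenkui 2, 1619 without Manao 1 and 1627 without Manao 2.

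The species difference itself differed between rows at 18 probes (0.197%), 3 (0.0329%) with a more positive and 15 (0.164%) with a more negative difference in row 1. At an unadjusted p under 0.05 there were 694 (7.61%). In 8 of the 18 Ruantiaohongmei was the cultivar furthest from the other 3 and was lower than them, in 3 it was higher, and in 7 Xiyeqing was higher. No P. armeniaca cultivar was the odd one. The count fell to 10 without Xiyeqing 2, Zhenkui 1 or Zhenkui 2, and to 11 without Manao 2.

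Both described proteins among the 18 were low in Ruantiaohongmei. For chalcone synthase the difference was -7.26 in row 1 and -0.43 in row 2, and these differed by -6.83 (adjusted p = 0.0126). That call was lost without Xiyeqing 1, Xiyeqing 2, Manao 2, Zhenkui 1 or Zhenkui 2, where the adjusted p was 0.071 to 0.098 and the value -6.58 to -6.88. Inosine-5'-monophosphate dehydrogenase (AF068844.1), an enzyme of guanine nucleotide synthesis, read -3.86 and -3.70 in Ruantiaohongmei and 2.45 and 2.50 in Xiyeqing, against 3.06 and 3.23 in Manao and 3.22 and 3.51 in Zhenkui. Its species difference of -3.91 was not called (adjusted p = 0.0613). That difference was called with normexp (adjusted p = 0.0448), cultivar as a fixed effect (6.83e-06) or slide row as the block (0.0189), and without either Xiyeqing array. The differences were -6.93 in row 1 and -0.89 in row 2, which differed by -6.04 (adjusted p = 0.00073), a call that held without each array in turn. The unnamed probe Contig1397, chosen after its values were seen, read -3.77 and -3.82 in Ruantiaohongmei and 2.20 and 2.22 in Xiyeqing, against 3.08 and 3.22 in Manao and 3.17 and 3.51 in Zhenkui. It was likewise lowest by far in Ruantiaohongmei, while Xiyeqing too read below every P. armeniaca array. Unlike the proteins above, it was called between the species in the main fit, at -4.04 (adjusted p = 0.0479), with -6.94 in row 1 and -1.13 in row 2. Of the 18 probes, 3 were species calls.

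**Figure D4:**
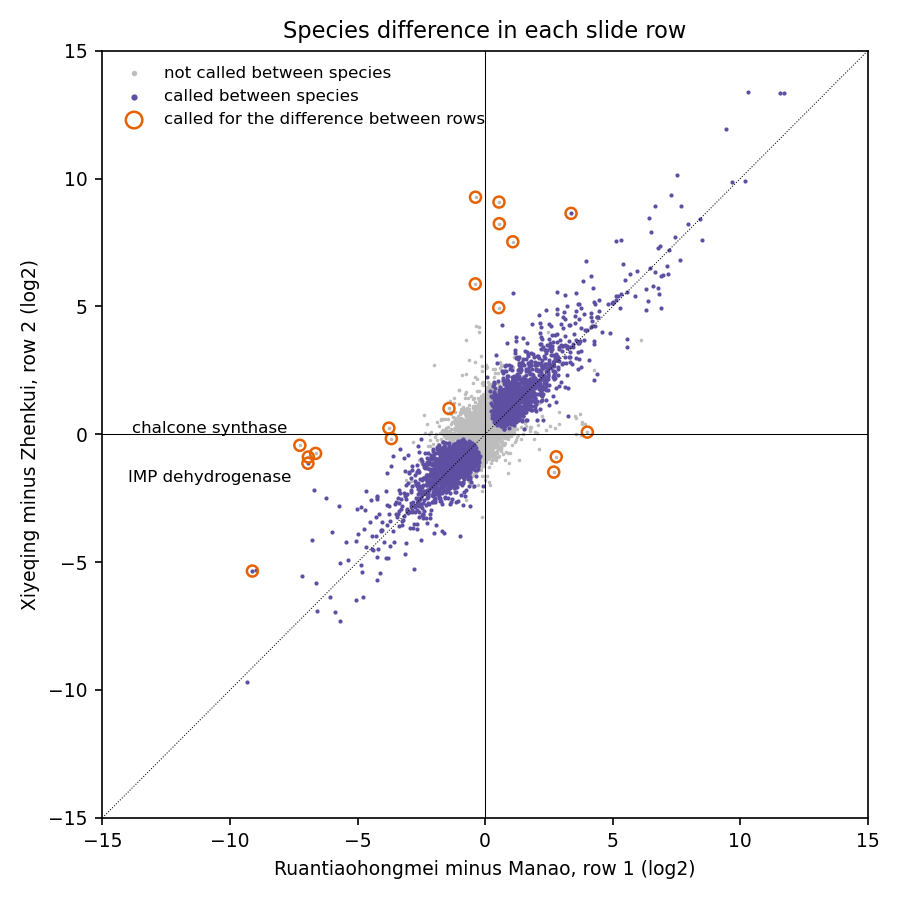
Each point is 1 of the tested probes; the x axis is Ruantiaohongmei minus Manao (row 1) and the y axis Xiyeqing minus Zhenkui (row 2), both log2, and orange rings mark the 18 probes called for the difference between rows. Called species differences lie in the lower left and upper right, a placement that the call itself largely sets. Chalcone synthase lies near -7.26 on the x axis and -0.43 on the y axis.

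Sugar transporters were higher in P. mume where they were called. Hexose transporter stp2 (AF367455.1), which carries glucose and fructose across membranes, read 3.26 and 2.07 in Ruantiaohongmei and 2.28 and 2.08 in Xiyeqing, against -0.72 and -0.60 in Manao and -1.27 and -0.43 in Zhenkui. All P. mume arrays were well above all P. armeniaca arrays, and the difference was 3.18 ± 0.32 (SE; adjusted p = 1.24e-04). Sorbitol is a main transported sugar of the family, and its transporters AF482011.1 (0.96) and SOT1 (AY924379.1, 1.01) were also higher, the second with an adjusted p of 0.053 without Zhenkui 1. The enzyme that makes sorbitol, sorbitol-6-phosphate dehydrogenase (FJ645737.1), went the other way at -1.74, and at -0.87 with normexp. Of the 6 sugar and sorbitol probes 3 rose, 1 fell and 2 were not called, and 5 rose without Manao 1.

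Organic acid enzymes and proton pumps had 7 tested probes, of which 4 fell, none rose and 3 were not called. Among all tested protein probes 35.2% were called lower. The NAD-dependent malate dehydrogenase mdh1 (AF367442.1), which interconverts malate and oxaloacetate, read 3.42 and 4.02 in Ruantiaohongmei and 3.85 and 3.83 in Xiyeqing, against 5.10 and 4.92 in Manao and 5.56 and 5.30 in Zhenkui. It was lower in P. mume at -1.44 ± 0.21 (SE; adjusted p = 8.29e-04) without overlap. NADP-dependent isocitrate dehydrogenase (AF367443.1) was lower at -1.06 ± 0.17 (SE; adjusted p = 0.00165). The plasma membrane H+ ATPase PPA2 (AJ271438.1), a proton pump, was above background on the 4 P. armeniaca arrays only. Its bound on the processed signal was 8.06-fold lower in P. mume. Its arrays read -7.31 and -7.08 in Ruantiaohongmei and -6.47 and -5.74 in Xiyeqing, against -2.83 and -0.14 in Manao and -3.24 and -3.32 in Zhenkui, and with normexp its difference of -1.30 was not called (adjusted p = 0.052). The 2 phosphoenolpyruvate carboxykinase probes, for an enzyme that turns organic acids towards sugars, differed by 0.76 and 1.44 without a call.

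Some single proteins differed without overlap between the arrays of the species. O-methyltransferase-like OMT1 (GU339212.1) read 1.57 and 0.69 in Ruantiaohongmei and 1.17 and 1.12 in Xiyeqing, against -1.95 and -2.43 in Manao and -2.08 and -2.46 in Zhenkui, a difference of 3.36 ± 0.23 (SE; adjusted p = 1.62e-05). The amino acid and peptide transporter PTR2 (AF213936.1) read 0.03 and -0.20 in Ruantiaohongmei and -0.35 and 0.12 in Xiyeqing, against -2.64 and -1.56 in Manao and -2.72 and -2.58 in Zhenkui, a difference of 2.28 ± 0.28 (SE; adjusted p = 4.00e-04). The S-locus-like receptor kinase srkl1 (AY645718.1), named for its likeness to a stigma receptor that recognises pollen, read 0.70 and 1.08 in Ruantiaohongmei and 0.82 and 1.12 in Xiyeqing, against -2.01 and -1.31 in Manao and -1.87 and -1.55 in Zhenkui, a difference of 2.62 ± 0.21 (SE; adjusted p = 3.68e-05). A methyltransferase, U82011.1, was lower in P. mume at -3.82 ± 0.45 (SE; adjusted p = 2.89e-04). Phosphoethanolamine N-methyltransferase NMT1, EY458092.1, which makes the choline head group of membrane lipids, was lower at -3.36 ± 0.52 (SE; adjusted p = 0.00126). None of these 5 calls was lost in any setting.

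Auxin-related proteins had 6 tested probes, of which 3 fell, 1 rose and 2 were not called, with a median of -1.99. The auxin-induced protein AY962829.1 read -0.10 and 1.69 in Ruantiaohongmei and 1.85 and 1.1 in Xiyeqing, against 3.81 and 3.52 in Manao and 4.20 and 4.39 in Zhenkui, a difference of -2.85 ± 0.43 (SE; adjusted p = 0.00113). Auxin-binding protein ABP20 (U81162.1) was lower at -3.14 and ABP19 (GQ169610.1) at -2.01. The ABP19 call was lost without any 1 of 4 arrays, both of Xiyeqing and both of Zhenkui (adjusted p of 0.052 to 0.081), and without either Manao array 5 probes of the list fell. The auxin-repressed protein U93273.1, whose transcript falls when auxin is given, was higher by 1.88 ± 0.46 (SE; adjusted p = 0.0123).

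The described protein-folding genes were lower in P. mume, apart from small heat shock proteins. Of 7 tested probes 4 fell, 1 rose and 2 were not called, beside 35.2% called lower among all tested protein probes. A putative 70kDa heat-shock protein (EF640675.1) read 0.69 and 0.64 in Ruantiaohongmei and 0.86 and 1.12 in Xiyeqing, against 3.48 and 3.49 in Manao and 3.52 and 3.77 in Zhenkui, a difference of -2.74 ± 0.17 (SE; adjusted p = 8.08e-06). HSP60 (AF489695.1) was lower at -1.82 ± 0.28 (SE; adjusted p = 0.00129) and heat shock protein 90 (EF640665.1) at -1.63 ± 0.35 (SE; adjusted p = 0.00587). Small heat shock protein 1 (GQ850381.1) was higher by 1.05 ± 0.28 (SE; adjusted p = 0.0175), while the 2 others were highest in Xiyeqing 2 and, among P. armeniaca arrays, in Manao 2, and were not called.

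Of 5 dehydrin and abscisic acid response probes 1 rose, 3 fell and 1 was not called, and of 8 cold and drought probes 3 rose and 5 were not called. Dehydrins protect cells as they lose water, and U34809.1 read 5.16 and 6.00 in Ruantiaohongmei and 5.75 and 5.44 in Xiyeqing, against 6.96 and 7.10 in Manao and 7.20 and 6.36 in Zhenkui, lower in P. mume at -1.31 ± 0.26 (SE; adjusted p = 0.00439). The abscisic acid response protein rab21 (AF172263.1) was lower at -1.44, and the abscisic stress ripening-like protein AF317062.1 rose by 1.01. Neither call was stable: the first was lost without Ruantiaohongmei 1, either Xiyeqing array or Zhenkui 1, and the second without any 1 of 5 arrays, both of Ruantiaohongmei, both of Zhenkui and Xiyeqing 2, with adjusted p of up to 0.094 and 0.115. RD22 (AF319165.1), a drought-response protein, was higher by 1.24 ± 0.29 (SE; adjusted p = 0.00959). The 5 CBF/DREB probes, for regulators that switch on cold-response genes, differed by -2.44 to -1.01 without a call. In CBFb (HM099910.1) the arrays read -2.15 and -1.70 in Ruantiaohongmei and -1.77 and -1.18 in Xiyeqing, against 0.90 and 0.74 in Manao and 2.69 and -1.88 in Zhenkui, with Zhenkui 2 at the level of P. mume. Without Zhenkui 2, 4 probes of the cold and drought list fell, without Manao 2, 3 fell, and without Manao 1, 1 fell. Without Ruantiaohongmei 2, 1 of its probes rose.

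Of 6 tested aroma and lipid oxidation probes 2 rose, 2 fell and 2 were not called. Their median of 1.44 was -0.31 without Ruantiaohongmei 2. Alcohol dehydrogenase ADH (EU395433.1), which reduces aldehydes to alcohols, was higher by 1.54 ± 0.32 (SE; adjusted p = 0.0055), and a lipoxygenase (AJ418043.2), which oxidises fatty acids, by 1.45 ± 0.23 (SE; adjusted p = 0.00145). The putative alcohol dehydrogenase Adh-1 (EF640714.1) was lower at -1.50 ± 0.34 (SE; adjusted p = 0.00758). Enoyl-CoA hydratase (U93271.1), an enzyme of fatty acid breakdown, was not above background on any P. mume array. Its bound on the processed signal was 16.8-fold lower there. Its arrays read -7.71 and -7.08 in Ruantiaohongmei and -8.07 and -7.92 in Xiyeqing, against -0.46 and 0.06 in Manao and -3.0 and -1.92 in Zhenkui. On each P. mume array its value equalled that of dam2, which was the lowest level on that array. With normexp the differences were -2.13 for enoyl-CoA hydratase and -1.64 for dam2.

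Catalases, which break down hydrogen peroxide, did not move as 1 group: of 6 tested probes 2 rose, 2 fell and 2 were not called. The cat1 probe AJ496418.1 read 3.22 and 3.27 in Ruantiaohongmei and 2.92 and 2.80 in Xiyeqing, against 4.49 and 4.45 in Manao and 4.50 and 4.74 in Zhenkui, lower in P. mume at -1.49 ± 0.17 (SE; adjusted p = 2.52e-04), and the catalase 1 probe AJ132444.1 was lower at -1.93 ± 0.17 (SE; adjusted p = 6.42e-05). A further probe named catalase1 (AY162277.1) differed by 0.77 without a call (adjusted p = 0.157). The cat2 probe AJ496419.1 was higher by 1.39, and its call was lost without Ruantiaohongmei 1, Xiyeqing 2 or Zhenkui 1 (adjusted p of 0.052 to 0.064) and with arrays averaged per cultivar (0.0671). A class III peroxidase (EF640707.1) was higher by 2.41 ± 0.49 (SE; adjusted p = 0.00455). Polyphenol oxidase (AF020786.1), which browns cut fruit, was lower at -1.15 ± 0.27 (SE; adjusted p = 0.0101). Among 13 redox probes 5 rose and 4 fell. The rising count was 2 without Ruantiaohongmei 1 or Xiyeqing 2, 3 without Zhenkui 1 and 8 without Manao 2.

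Among the other transcription factors, the MYB factor FJ860135.1 read -1.11 and -2.52 in Ruantiaohongmei and -2.83 and -3.03 in Xiyeqing, against -4.32 and -5.25 in Manao and -6.95 and -7.54 in Zhenkui. All P. mume arrays were above all P. armeniaca arrays and the mean difference was 3.64 ± 0.71 (SE; adjusted p = 0.00404), although only 2 P. armeniaca arrays were above background. The difference was 1.24 with normexp and 2.34 in the authors' deposited log2 values. MYB185 (EF640705.1) was lower at -1.59 ± 0.34 (SE; adjusted p = 0.00655). The KNOX homeobox factor GQ281773.1, of a class that keeps shoot tips growing, was lower at -1.60 ± 0.35 (SE; adjusted p = 0.00651). Outside MADS-box and ethylene response, 1 of 7 transcription factors rose, 3 fell and 3 were not called.

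Genes often used as constant references differed too. All 5 actin and tubulin probes were lower in P. mume, by 0.78 to 1.23 in size. Actin AF321852.1 read 2.67 and 2.67 in Ruantiaohongmei and 2.77 and 2.75 in Xiyeqing, against 3.96 and 3.92 in Manao and 3.88 and 3.99 in Zhenkui, a difference of -1.22 ± 0.14 (SE; adjusted p = 2.16e-04), and its spread within each species was small. Elongation factor 1 alpha (AY962821.1) was lower at -1.89 ± 0.22 (SE; adjusted p = 2.69e-04). The ubiquitin carrier protein AY962825.1 was higher by 0.91, a call lost without any 1 of 5 arrays, both of Ruantiaohongmei, both of Zhenkui and Xiyeqing 2 (adjusted p of 0.050 to 0.085). The direction of actin, tubulin and elongation factor was the same with quantile and median scaling, where the list's median lay between -1.16 and -1.01 over all settings. Only probes on the authors' deposited lists carry a name, so reference genes that did not differ are not counted here.

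**Figure D5:**
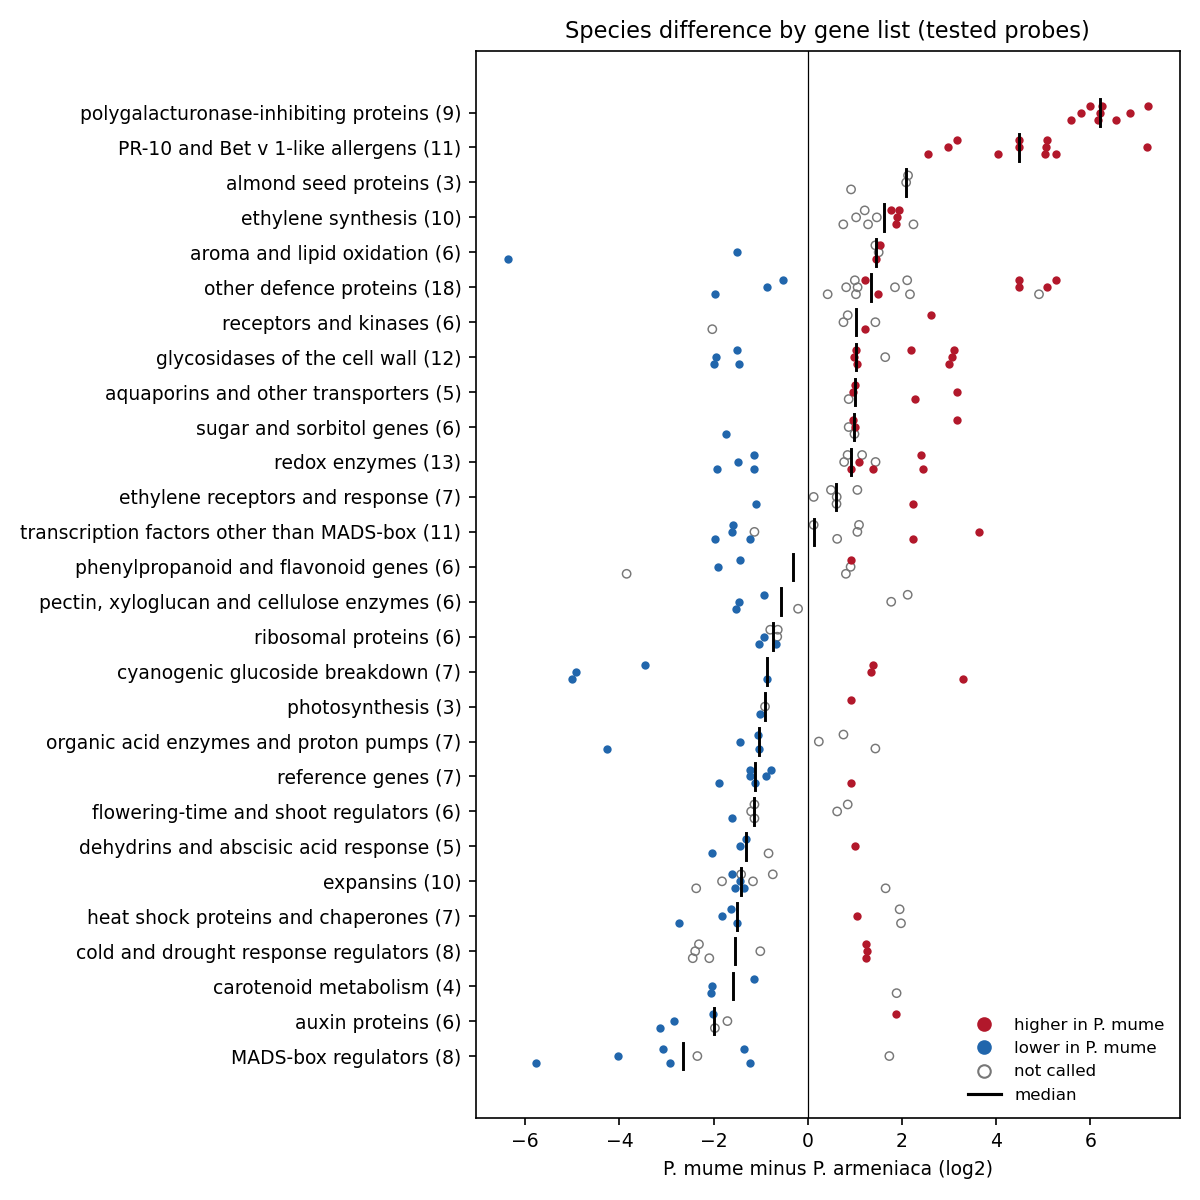
Each point is 1 tested probe of a gene list, with the number of tested probes in brackets; the x axis is the difference, P. mume minus P. armeniaca (log2), filled points are called and black bars are medians. Polygalacturonase-inhibiting proteins (median 6.20) and PR-10 proteins (4.49) lie furthest to the right and MADS-box regulators (-2.64) furthest to the left; some probes stand in more than 1 list.

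The smaller lists gave few calls. Of 6 ribosomal protein probes 3 fell and 3 were not called, with a median of -0.74; 6 fell without either Manao array and 1 without Ruantiaohongmei 1. Of 3 photosynthesis probes 1 rose, the putative photosystem I assembly protein EF640703.1 (0.92 ± 0.20 (SE; adjusted p = 0.00604)), and 1 fell, photosystem I subunit X (FC462331.1, -1.01 ± 0.23 (SE; adjusted p = 0.0075)). The markers of green tissue were above background on all 8 arrays, as were the expansin, beta-galactosidase and ACC oxidase probes that mark fruit flesh. Endopolygalacturonase, also a marker of flesh, was not. Of its 6 probes only 1 could be tested, DQ340809.1, above background on 4 P. mume and 3 P. armeniaca arrays. The seed marker oleosin (AY962832.1) read 1.31 in Ruantiaohongmei 2 and -5.48 to -4.90 on the other P. mume arrays, against -6.14 to -5.07 in P. armeniaca. Of 6 flowering and shoot regulators 1 fell and 5 were not called, while 3 fell without Ruantiaohongmei 1 or Manao 1, and 2 without Xiyeqing 1 or Manao 2. Of 6 receptors and kinases 2 rose and 4 were not called, with 1 rising without Ruantiaohongmei 1 or Xiyeqing 1, and 1 falling without Ruantiaohongmei 2 or Manao 2. Of 5 transporters 4 rose and 1 was not called. The 1 gibberellin probe, the GAST-like protein EF640687.1, differed by 0.15 without a call. The list of proteases had 0 described probes. Of the 42 tested proteins in no list 12 rose, 20 fell and 10 were not called.

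The largest measured differences in both directions belonged to probes with no protein name. The unnamed probe actca_Cluster3645.seq.Contig1 read 5.72 and 5.68 in Ruantiaohongmei and 5.52 and 6.35 in Xiyeqing, against -7.94 and -4.06 in Manao and -7.80 and -6.98 in Zhenkui. All P. mume arrays were above all P. armeniaca arrays by more than 9 log2 units, and the difference was 12.51 ± 0.80 (SE; adjusted p = 9.62e-06). Of the P. armeniaca arrays only Manao 2 showed the probe above background, so it entered the test through P. mume alone. The size, SE and p-value rest on 3 readings that were not above background, and the p-value is no separate evidence. With normexp the difference was 8.74. A second cluster, actca_Cluster3871.seq.Contig1, was above background on 1 P. armeniaca array as well and differed by 12.45, or by 8.71 with normexp. In the other direction the apricot tag CV052221.1 read -7.71 and -6.24 in Ruantiaohongmei and -8.07 and -6.15 in Xiyeqing, against 2.53 and 2.18 in Manao and 2.63 and 2.49 in Zhenkui. It was above background on no P. mume array. Its bound on the processed signal was 231-fold lower there, while with normexp its difference was -5.36. The tag CB819565.1 read -7.07 and -6.39 in Ruantiaohongmei and -2.23 and -2.90 in Xiyeqing, against 2.34 and 2.45 in Manao and 2.75 and 2.81 in Zhenkui, a difference of -7.23 ± 0.99 (SE; adjusted p = 6.70e-04). Only 2 P. mume arrays showed it above background, those of Xiyeqing, so its size is uncertain. Over all settings the difference ran from -7.88 to -4.84.

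Some transcripts were above background in 1 species only. On all 4 P. mume arrays and no P. armeniaca array there were 61 such probes (0.587% of 10384), of which 42 were actca clusters, 8 apricot tags and none a described protein. Their bounds ran from 1.87-fold to 670-fold with a median of 6.45-fold. On all 4 P. armeniaca arrays and no P. mume array there were 89 (0.857%), of which 40 were apricot tags, 32 contigs and 11 actca clusters, and 3 were described proteins, namely enoyl-CoA hydratase, dam2 and PPA2. Their bounds ran from 1.12-fold to 231-fold with a median of 1.96-fold. A bound of at least 16-fold was reached by 19 of the 61 and by 5 of the 89.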

How the data were processed

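Fruit RNA of 2 species was hybridised to 8 one-colour arrays on 1 slide, 2 for each of 4 cultivars, and groups follow the labels. Per the file headers, processed signal intensity was made by Agilent Feature Extraction 10.7.1.1, while version 8.1 stands in the submitters' processing notes. Normalised log2 values and lists with log2 ratios, whose descriptions name the probes, were deposited too. The sources used here do not give how they were made.

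From 15208 spots, control and outlier spots were left out and spots of a probe averaged. Each array's log2 processed signals were set relative to their 75th percentile. Probes that some cultivar showed well above background on both its arrays entered limma 3.58.1 (R 4.3.3), where cultivar was a random block, with a consensus correlation of 0.078, and p-values were adjusted by Benjamini-Hochberg. Slide rows were compared in a model with 4 cultivar means. Of the tested probes 4 lacked a value on some array. The number of arrays limits the precision.

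Members and the 29 gene lists were chosen with earlier results of these data known, and 3 further lists were added after the descriptions were read. Named genes are described proteins with a call and no overlap (the 15 largest each way), up to 3 called members each way per list, up to 10 proteins each way above background in 1 species only, up to 5 proteins each way called between rows, and the 2 largest unnamed probes each way. Other probes with values in the text, such as those without a call, were chosen after their values were seen. Alternatives covered background correction (normexp with an offset of 50 on the median spot signal), scaling, the filter on dim probes, the authors' log2 values, the model's block and options, and each array left out.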

Additional observations from a re-analysis of the deposited data

Results flagged for a closer look

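Within species, 9 of 204 groups of 4 arrays held 1 array far from the other 3, by a test that chance alone would pass in about 1 of 20 groups. Zhenkui 2 was that array for 3 described proteins in P. armeniaca. It read 3.28 for Pru av 1.0201 (AY540507.1), against 4.59 to 4.84 on the others, 1.32 for alcohol dehydrogenase Adh-1 (EF640714.1), against 2.35 to 2.43, and 3.77 for the 70kDa heat-shock protein (EF640675.1), against 3.48 to 3.52. Manao 2 was high for the proton pump PPA2 (AJ271438.1), at -0.14 against -3.32 to -2.83, for the transporter PTR2 (AF213936.1), at -1.56 against -2.72 to -2.58, and for the unnamed actca_Cluster3871.seq.Contig1, at -3.84 against -7.77 to -7.24. In P. mume, Xiyeqing 1 was low for the auxin-repressed protein U93273.1, at 6.96 against 8.78 to 8.87. Xiyeqing 2 was high for RD22 (AF319165.1), at 5.55 against 4.45 to 4.62, and for actca_Cluster3871.seq.Contig1, at 6.19 against 5.73 to 5.76.

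The species difference itself differed between the slide rows for 3 of the named probes, by limma's test of that difference (row 1 minus row 2). The values were -6.83 for chalcone synthase (adjusted p = 0.0126), -6.04 for inosine-5'-monophosphate dehydrogenase (adjusted p = 0.00073) and -3.77 for the apricot tag CB819565.1 (adjusted p = 0.0289). The call of CB819565.1 was lost without each array except Ruantiaohongmei 2. Its Ruantiaohongmei readings were not above background, so the size of its row difference is uncertain.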

How the results depend on the processing

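No named value reversed in any setting run. Of 100 named genes with a species call, 81 kept it in every setting with all arrays that tested them. There were 12 such settings, but 11 for dim probes such as dam2, which were not tested among probes above background on all 8 arrays. Without each of the 8 arrays in turn 78 kept it, and 75 did in all settings that tested them. Normexp background correction, chosen after seeing the data because the planned mean spot signal is not among the columns used here, gave 995 calls of at least 2-fold and 11 calls for the difference between rows, and 5 such calls were made among probes above background on all 8 arrays. Species calls numbered 2356 (arrays averaged per cultivar) to 3804 (slide row as the block) and 2546 to 4182 with 1 array left out. With 1 array left out, 2-fold calls numbered 1739 to 2230, non-overlapping probes 3891 to 4213, row 1 calls 562 to 2097, row 2 calls 1278 to 2679 and row-difference calls 10 to 23. An arm left with 1 array was assumed to vary like the others. With arrays averaged per cultivar the calls of U50201.2, AY093700.1, X96714.1, EF640684.1, AJ890086.1, FJ026008.1, AY924379.1, AF317062.1, AF071889.1, AF071891.1, EF640709.1 and AJ496419.1 were lost (adjusted p of 0.0517 to 0.128). Same-numbered arrays did not deviate together in every pair of cultivars (correlations of -0.176 to 0.393). These values cannot show whether the numbers pair the samples, and the main fit used no such pairing. With the replicate block 3093 probes were called between species, 1899 by at least 2-fold, 1995 in row 1, 2486 in row 2 and 15 for the difference between rows. The species difference of chalcone synthase was called with cultivar as a fixed effect (adjusted p = 0.000245) or slide row as the block (0.0361); the cause was not tested. CB819565.1 lost its row difference with normexp (-0.56), quantile normalization (-3.49), the authors' deposited log2 values (-2.10) and the replicate block (-3.77). The median changed sign in some setting for 4 of 31 lists. Dim probes have the least certain size, as the bounds and normexp values show.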
